A study of Mus musculus with 12 samples.

Results

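The 44 genes described here form a module of mitosis and G2/M genes: mitotic cyclins, kinases, kinesins, kinetochore, spindle and cytokinesis genes. They were taken by name from the tables. All 44 were found among the 49997 genes of the count tables, and all 44 passed the low-count filter in every comparison. Polyadenylated RNA was sequenced from sorted mouse thymocytes at the DP and the CD4 stage. DP stands for double-positive, the stage at which developing T cells carry CD4 and CD8 together, and CD4 for the later single-positive stage. Each stage had 3 WT and 3 Satb1 KO libraries, 12 in all. SATB1 is a chromatin-organizing protein that is abundant in thymocytes, and its knockout was induced with tamoxifen. The WT animals also received tamoxifen, so all 4 groups share the drug. For the Cre driver, the deleted part of Satb1, the age of the mice and the sorting gates, the answer is not given in the sources used here. No label ties the libraries to individual mice, so the p-values below measure only the spread between these libraries, which may be technical.

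Cells about to divide build up cyclin A and B, which bind and activate the kinase CDK1; Polo-like and Aurora kinases, kinesin motors and the kinetochore then assemble the spindle and attach the chromosomes to it. A checkpoint holds the anaphase-promoting complex, a ubiquitin ligase, until the chromosomes are attached, after which cyclin B and securin are destroyed and the cell divides. In the thymus most division precedes the resting DP stage: the pre-T cell receptor drives a burst of division in early DP cells, and most later DP cells and newly selected CD4 cells do not divide. Transcripts of the module are therefore used as a measure of how many cells of a sample are in G2 or M.

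Many genes of the module carry, close to the transcription start, a cell cycle genes homology region (CHR, TTTGAA or TTCGAA) and CCAAT boxes, which in other systems are bound by the DREAM and MuvB complexes and by NF-Y. The RefSeq table of promoters (build GRCm38.p6, which spans 250 bases before to 50 bases after each start) held 38 promoters of 36 members; Ccna2, Cdc25c, Foxm1, Kif20a, Aurkb, Incenp, Tpx2 and Dlgap5 were not in it. Both strands were searched, so that TTCAAA is counted as TTTGAA and ATTGG as CCAAT, and neither motif is part of the other. TTTGAA or TTCGAA lay in 30 of the 38 promoters (78.9%), against 19.2% of all 32851 promoters of that length. At least 1 CCAAT lay in 28 of 38 (73.7%), against 37.4% of all promoters, and both motifs together in 65.8% against 7.52%. When the window was narrowed to 50 bases on each side of the start, a choice made after the values were seen, TTTGAA or TTCGAA lay in 73.7% of the members' promoters and in 5.31% of all promoters. In the 250 bases before the start alone the shares were 36.8% against 17.1%, and both motifs together lay in 31.6% against 6.02%. A match is a run of letters and not a measured binding site. The stretches just before the RefSeq start of 7 genes follow, 5′ to 3′ on the gene's own strand, with matches to either motif in capitals.
Cdk1, chr10:69352913-69353032, minus strand, with both motifs repeated: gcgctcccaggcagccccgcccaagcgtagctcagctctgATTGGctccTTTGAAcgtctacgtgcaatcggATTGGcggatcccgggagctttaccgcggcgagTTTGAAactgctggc
Cdc20, chr4:118437344-118437463, minus strand: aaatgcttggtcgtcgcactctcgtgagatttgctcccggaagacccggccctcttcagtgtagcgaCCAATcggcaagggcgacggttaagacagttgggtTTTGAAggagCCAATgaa
Top2a, chr11:99024190-99024349, minus strand: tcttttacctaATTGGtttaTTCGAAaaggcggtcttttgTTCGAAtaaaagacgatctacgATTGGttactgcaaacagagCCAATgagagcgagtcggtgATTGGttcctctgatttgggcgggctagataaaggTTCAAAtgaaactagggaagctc
Ube2c, chr2:164769809-164769928, plus strand: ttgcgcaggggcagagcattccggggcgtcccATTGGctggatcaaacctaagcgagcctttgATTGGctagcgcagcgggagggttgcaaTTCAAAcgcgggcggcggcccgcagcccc
Ccnb1, chr13:100786487-100786606, minus strand, with CCAAT alone: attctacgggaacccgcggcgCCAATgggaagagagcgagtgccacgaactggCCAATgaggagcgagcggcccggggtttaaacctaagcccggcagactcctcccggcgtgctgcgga
Kif23, chr9:61946800-61946859, minus strand: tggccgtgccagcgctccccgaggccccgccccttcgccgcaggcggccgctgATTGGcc
Pttg1, chr11:43425982-43426101, minus strand, with neither motif: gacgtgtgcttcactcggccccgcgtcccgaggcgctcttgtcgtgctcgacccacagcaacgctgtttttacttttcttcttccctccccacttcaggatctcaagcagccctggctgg
Kif23 also has TTTGAA from base 3 after its start, outside the stretch shown. The stretch of Pttg1 lies before its RefSeq start but inside the gene as counted, whose 5′ end is at base 43427463. The bases before that end were not searched, so motifs there are not known. Cdk1, Cdc20, Top2a, Ube2c and Ccnb1 are shown because their transcripts moved with nearly all the others in the data below. Kif23 and Pttg1 are shown because theirs did not move with the genotype in CD4 cells. Mad2l1, Nuf2, Birc5 and Nusap1, whose promoters likewise held neither motif in the window searched, were higher in CD4 KO than in CD4 WT.

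The shallowest library was DP WT replicate 3, with 22790504 counts, and the deepest CD4 KO replicate 2, with 62422640. Levels are given as CPM (counts per 1000000 counts of the library, with library sizes adjusted by TMM over all 12 libraries). The DP and CD4 counts came from separate tables, and whether both stages were sequenced together is not stated, so a difference between the runs and one between the stages cannot be told apart. Satb1 itself was at 3864 ± 29.1 CPM (SD, n = 3) in DP WT and 2608 ± 231 in DP KO, and at 3270 ± 258 in CD4 WT and 1498 ± 40.6 in CD4 KO; it was lower in each KO group but still present, and which exons were deleted is not given. Xist was at 0.845 and 0.273 CPM in DP WT replicates 1 and 2, while the other 10 libraries had 190 to 601 CPM. Ddx3y, of the Y chromosome, was at 40.3 to 127 CPM in all 12 libraries. The 10 libraries with Xist thus held both transcripts, and the sex of the animals is not in the labels. CD4 WT replicates 1 and 2 had Xist at 335 and 284 CPM, so the same number at the 2 WT stages does not mean the same animals. For the comparisons that include DP WT, results for the members are also given below with replicate 3 as the lone DP WT library. Levels relative to DP WT, the other gene lists, the marker sums and the recounts with fewer members rest on all 3 DP WT libraries. The replicate number is the batch number in the labels, so within-batch values pair the libraries of 1 number.

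In CD4 cells 42 of the 44 mitotic genes were higher in Satb1 KO than in WT, none was lower, and the median log2 fold change was 1.54 (2.90-fold). Called means here an adjusted p under 0.05 in edgeR's quasi-likelihood test over all genes; 20.9% of the 17316 genes tested were called higher and 18.6% lower by that rule, with a median over all genes of 0.00. For 42 members the 3 KO libraries all lay above the 3 WT libraries, against 26.9% of all genes, and 40 members had a log2 fold change of at least 1. The within-batch medians of the members were 1.51, 1.58 and 1.46 in batches 1, 2 and 3. The summed level of the 44 genes was 1530 to 1961 CPM in the CD4 WT libraries and 4272 to 5496 in the CD4 KO libraries. In bulk RNA a larger share of dividing cells and more mitotic RNA per cell cannot be told apart. The adjusted p of the 42 called genes ran from 1.06e-06 to 0.000166, and the count stayed at 42 when each library was left out in turn.

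**Figure D1:**
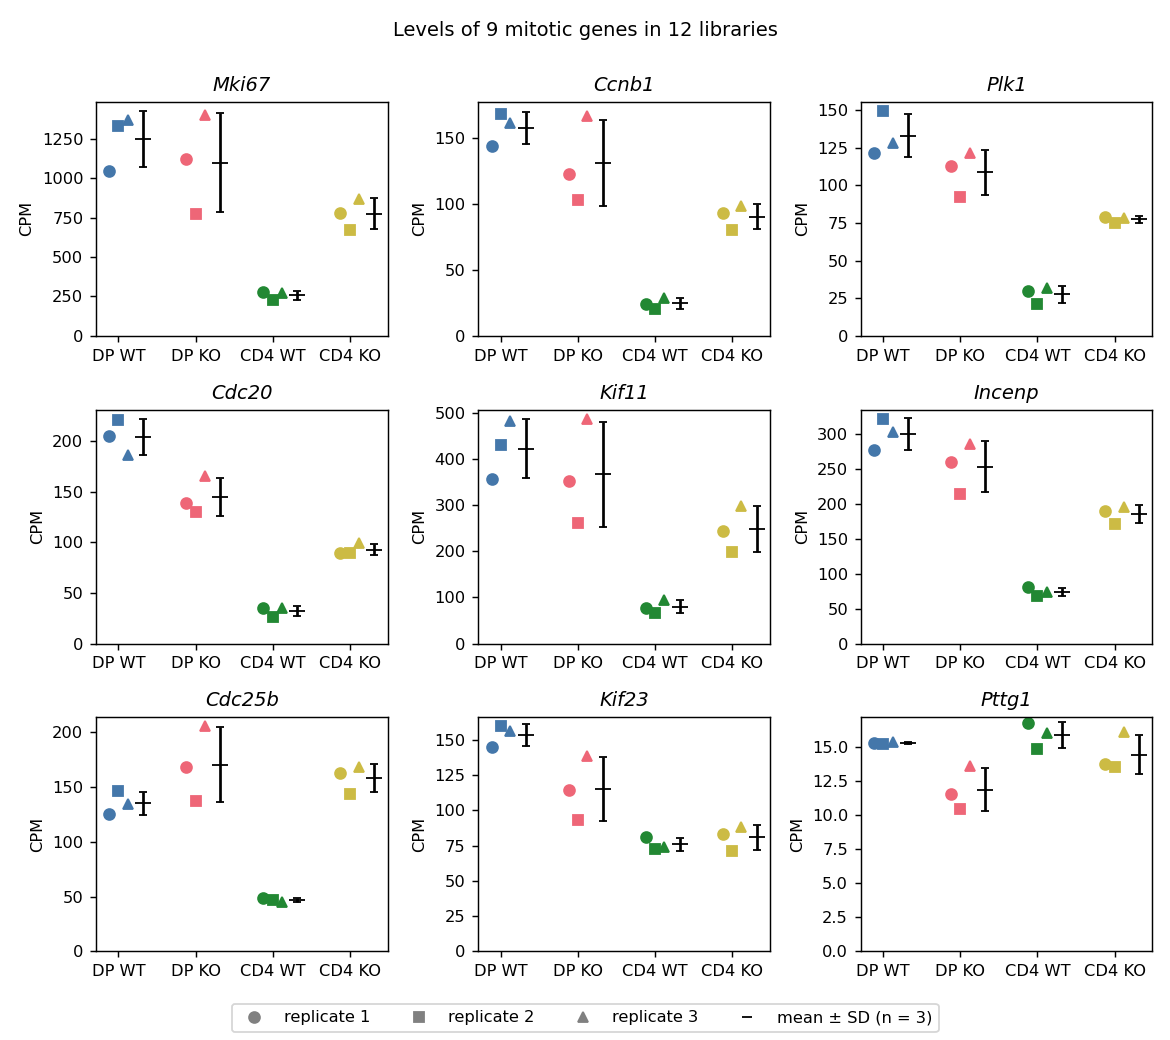
Each panel plots 1 gene: the vertical axis is its level in CPM, the horizontal axis the 4 groups, symbols the replicates, and the bars the mean ± SD (n = 3). For Mki67, Ccnb1, Plk1, Cdc20, Kif11 and Incenp every CD4 KO library lies above every CD4 WT library and below the DP WT libraries, while the CD4 groups overlap for Kif23 and Pttg1.

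The 2 general markers of cycling cells were among the most abundant members. Mki67, which encodes the Ki-67 protein that coats mitotic chromosomes (chromosome 7, 135689784 to 135716450 in mm10), was at 277, 225 and 274 CPM in CD4 WT and at 777, 673 and 870 in CD4 KO replicates 1 to 3. The CD4 groups did not overlap, and the log2 fold change was 1.58 (SE 0.11, adjusted p = 9.53e-06). Top2a, the topoisomerase that untangles sister chromatids (chromosome 11, 98992947 to 99024199), was at 246, 220 and 291 CPM in CD4 WT and 697, 576 and 824 in CD4 KO. It had a log2 fold change of 1.47 (SE 0.14, adjusted p = 4.34e-05). In each genotype replicate 2 was the lowest CD4 library for these genes.

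All 7 genes of the group of cyclins, CDK1 and its activators were higher in CD4 KO, by a median of 1.73 on the log2 scale, and this group held the 2 largest changes of the module. Ccnb1 (chromosome 13, 100778739 to 100786486) is 1 of 2 cyclin B genes in the module. It was at 24.1, 20.8 and 29.1 CPM in CD4 WT and 93.2, 80.1 and 98.1 in CD4 KO. Its level was 3.68-fold higher (log2 1.88, SE 0.13, adjusted p = 6.36e-06). Ccnb2 is the other cyclin B gene in the module. It was at 25.5, 23.3 and 30.6 CPM in CD4 WT and at 96.0, 82.9 and 115 in CD4 KO. The KO level was 3.72-fold higher (log2 1.89, SE 0.14, adjusted p = 9.43e-06). For each cyclin B gene of the module the lowest KO library was well above the highest WT library. Ccna2, the cyclin A of dividing somatic cells, had a log2 fold change of 1.73 (SE 0.16), and Cdk1, the kinase itself (chromosome 10, 69335146 to 69352912), one of 1.48 (SE 0.16). Cdc25b, a phosphatase that activates CDK1, stood at 48.9, 47.1 and 44.8 CPM in CD4 WT and at 163, 144 and 168 in CD4 KO. Its log2 fold change of 1.75 (SE 0.08) had the smallest adjusted p of the module, 1.06e-06. Foxm1, a transcription factor of G2/M genes, changed least in this group, by 1.22 (SE 0.10).

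The 3 mitotic kinases rose by a median of 1.49. Plk1, the Polo-like kinase of mitotic entry and spindle assembly, was at 29.9, 21.3 and 32.1 CPM in CD4 WT and at 79.4, 75 and 78.5 in CD4 KO, the KO libraries lying close together and above all WT libraries. Aurka, the Aurora kinase of the spindle poles, had a log2 fold change of 1.70 (SE 0.11, adjusted p = 4.84e-06), and Nek2, a kinase of centrosome separation, one of 1.40 (SE 0.10).

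Of the 7 genes of the spindle checkpoint and the anaphase-promoting complex, 6 were higher in CD4 KO and Pttg1 was not. Bub1b, which encodes the checkpoint protein BubR1, went from 50.9 ± 8.06 CPM (SD, n = 3) in CD4 WT to 150 ± 5.23 in CD4 KO, a log2 fold change of 1.57 (SE 0.11). Cdc20, the activator of the ligase in anaphase, was at 35.0, 26.2 and 34.7 CPM in CD4 WT and at 89.4, 90.0 and 99.2 in CD4 KO (log2 1.54, SE 0.11, adjusted p = 9.77e-06). Ttk, the kinase that starts checkpoint signalling, rose by 1.74, Ube2c, the ubiquitin-conjugating enzyme of the complex, by 1.64, Bub1 by 1.51 and Mad2l1, which encodes Mad2, by 1.35.

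Of the 7 kinesins 6 were higher in CD4 KO, at log2 fold changes from 0.87 to 1.68. Kif11, the motor that pushes the spindle poles apart, was at 77.6, 67.1 and 95.1 CPM in CD4 WT and at 244, 200 and 299 in CD4 KO (log2 1.63, SE 0.16, adjusted p = 5.07e-05). Kif4, a chromosome-bound motor encoded on the X chromosome, rose by 1.68, Kif15 by 1.65, Kif2c, a depolymerase at the kinetochore, by 1.63 and Kif20a, a motor of cytokinesis, by 1.32. Kif20b, a related motor, was at 34.3, 30.6 and 36.8 CPM in CD4 WT and 65.7, 57.4 and 62.0 in CD4 KO, the smallest of the called changes (log2 0.87, SE 0.09, adjusted p = 6e-05).

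The 6 kinetochore genes all rose, with the lowest median of the 9 role groups, 1.30. Cenpe, the motor that brings chromosomes to the spindle equator, rose by 1.51 (SE 0.15) and Cenpf, a large protein of the outer kinetochore, by 1.29 (SE 0.11). Spc25, Nuf2 and Ndc80, which encode subunits of the complex that grips microtubules, rose by 1.49, 1.32 and 1.27. Cenpa, the histone variant that marks centromeres, was at 33.5, 33.7 and 37.5 CPM in CD4 WT and at 71.1, 57.9 and 79.4 in CD4 KO, a log2 fold change of 1.00 (SE 0.11, adjusted p = 0.000115).

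The chromosomal passenger complex corrects faulty attachments and later guides cytokinesis. Its kinase gene Aurkb rose by 1.74, the survivin gene Birc5 by 1.73 and the scaffold gene Incenp by 1.32. Incenp had 80.5, 68.9 and 73.5 CPM in CD4 WT against 191, 172 and 195 in CD4 KO (SE 0.08, adjusted p = 3.93e-06), with no overlap of the groups. All 4 cytokinesis genes rose: Anln, which encodes the anillin scaffold of the contractile ring, by 1.77, Ect2, the activator of RhoA, by 1.62, Racgap1, of the centralspindlin complex, by 1.54 and Prc1, a bundler of midzone microtubules, by 1.5. The 5 spindle assembly genes lay within a narrow range, from 1.45 for Dlgap5 to 1.61 for Ckap2l. Of these Tpx2, the activator of Aurora A, rose from 46.8 ± 7.10 CPM (SD, n = 3) to 139 ± 10.4 and Nusap1, a microtubule-bundling protein, from 35.0 ± 4.81 to 106 ± 17.2.

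The 2 members that were not called in CD4 cells were Kif23 and Pttg1. Kif23, the kinesin subunit of centralspindlin (chromosome 9, 61917277 to 61946810), was at 81.4, 72.7 and 73.9 CPM in CD4 WT and at 83.4, 71.3 and 88.3 in CD4 KO. The groups overlapped, with a log2 fold change of 0.09 (SE 0.09, adjusted p = 0.454). Its partner in the complex, Racgap1, was at 46.2, 44.4 and 56.6 CPM in CD4 WT and at 137, 128 and 161 in CD4 KO. Pttg1, which encodes securin, the inhibitor of separase (chromosome 11, 43420244 to 43427463), was at 16.8, 14.8 and 16.0 CPM in CD4 WT and at 13.7, 13.5 and 16.1 in CD4 KO. The groups overlapped here too, with a log2 fold change of -0.14 (SE 0.11, adjusted p = 0.365).

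**Figure D2:**
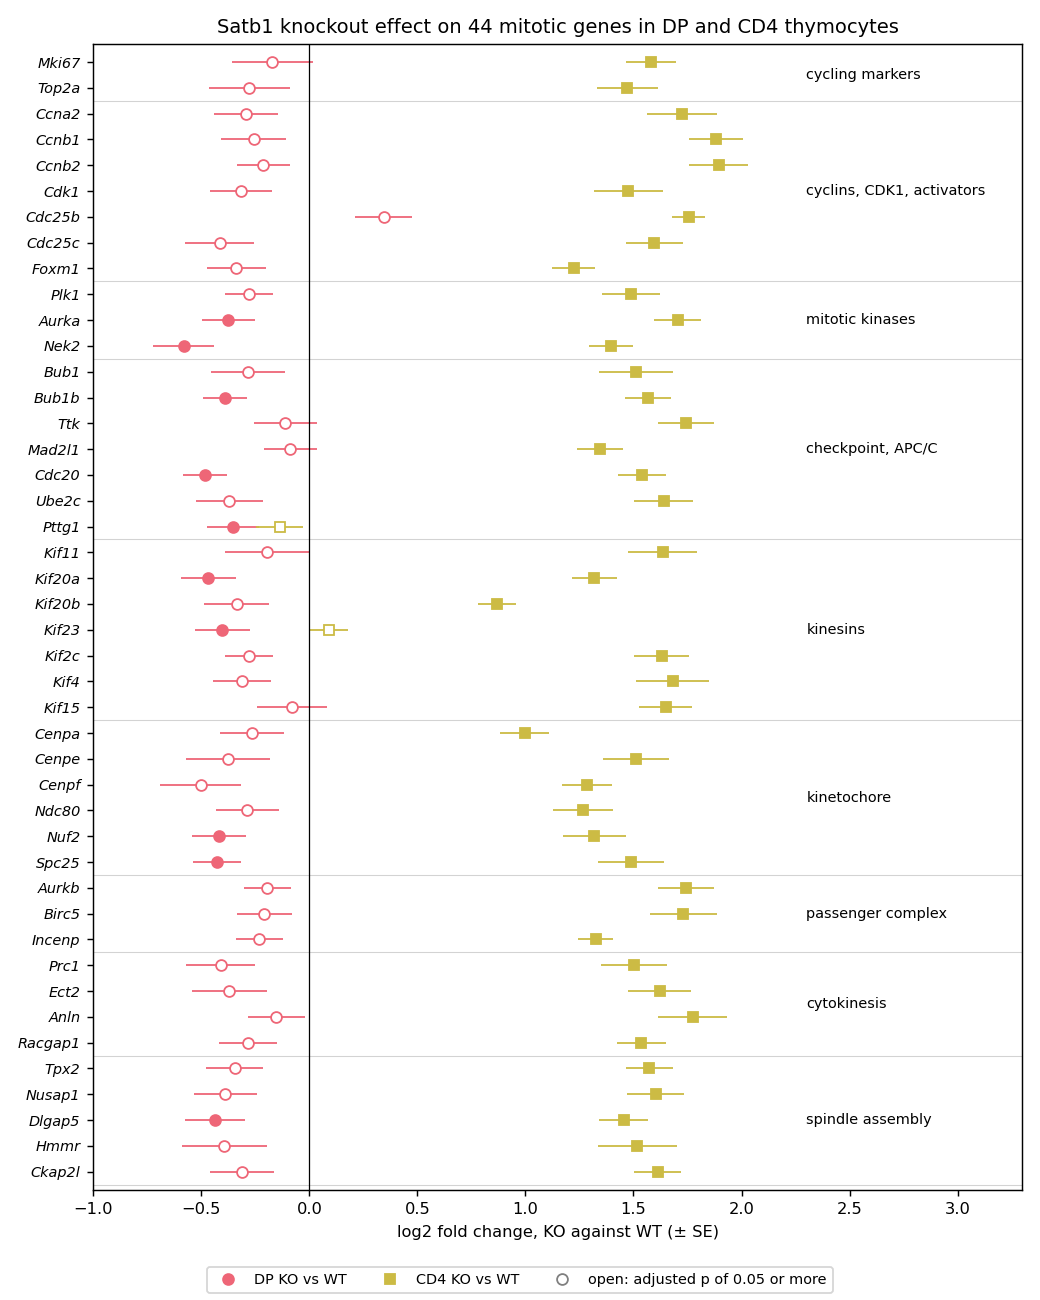
The horizontal axis gives the log2 fold change of KO against WT ± SE for each of the 44 genes, ordered by role, in DP (circles) and CD4 (squares); open symbols did not pass the adjusted p threshold. The CD4 values of 42 genes lie between 0.87 and 1.89, with Kif23 and Pttg1 near 0, and the DP values lie below 0 for 43 genes and above 0 for Cdc25b.

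Markers of thymocyte stage differed between the CD4 groups as well, where 20.9% of all genes were called higher and 18.6% lower. The summed level of 10 DP markers was 1538 to 1985 CPM in CD4 WT and 2924 to 3515 in CD4 KO, with 8 of 10 called higher and Cd4 lower. That of 8 markers of mature CD4 cells was 2283 to 2541 CPM in CD4 WT and 1160 to 1379 in CD4 KO, with 5 of 8 called lower. The sum of 9 markers of immature, double-negative cells was 117 to 128 CPM in CD4 WT and 313 to 469 in CD4 KO, with 5 of the 8 tested called higher and Cd44 lower. Most of the difference came from Il2ra, which encodes CD25, with a mean of 35.2 CPM in CD4 WT and 239 in CD4 KO, and from Notch3, with 20.7 and 95.4. Cd34, a defining marker of the earliest of these cells, was at 0 to 0.478 CPM in all CD4 libraries. The part of these differences in the result on mitotic genes was not tested. For scale, CD4 KO had 40.4% of the DP KO level of Rag1, the recombinase of DP cells, 9.58% of that of Cd8a and 150% of that of Ptcra, the pre-T cell receptor chain. For the other 7 DP markers it had 39.1% to 66.1%, against a median of 67.6% for the 44 mitotic genes. Sums of 7 markers of mature CD8 cells, which include Cd8a and Cd8b1, were 245 to 365 CPM in CD4 WT and 478 to 574 in CD4 KO. Of these 3 were called higher and 1 lower. Of the markers of other cell types, B-cell sums were 6.27 to 17.3 CPM in CD4 WT and 20.1 to 30.1 in CD4 KO, with 1 of 6 called higher. Myeloid sums were 25.8 to 57.1 CPM in CD4 WT and 22.5 to 57.5 in CD4 KO, with none of 7 called. Erythroid sums were 167 to 267 CPM in CD4 WT and 184 to 338 in CD4 KO, with none of the 5 tested called. The sums of stromal, endothelial and epithelial markers were 197 to 217 CPM in CD4 WT and 181 to 204 in CD4 KO, most of it from Pecam1, with means of 196 and 172 CPM. In that list Pdgfrb was called higher, from 1.18 to 12.9 CPM, and Cdh5 lower, while Foxn1 of thymic epithelium was at or below 0.0463.

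In DP cells 10 of the 44 genes were called lower in the knockout and none higher, 34 did not pass the test, and the median log2 fold change was -0.31. Of all 16776 genes tested 14.1% were called lower and 16.7% higher, so the share of members called lower was not far from the background. The median log2 fold change over all genes was 0.01, with a lower quartile of -0.29. That of 43 of the 44 members was negative. At an unadjusted p under 0.05, 20 were lower and 1 was higher. The share of all genes at that looser rule was not counted, so these numbers have no background. The 3 KO libraries all lay below the 3 WT libraries for 13 members, against 21.7% of all genes. The within-batch medians were -0.25, -0.73 and -0.06 in batches 1, 2 and 3. All were negative, and that of batch 2 was the furthest from 0. Stage markers moved in DP too: the summed level of the 10 DP markers was 13226 to 14416 CPM in DP WT and 7933 to 8177 in DP KO, with 8 called lower. That of the immature, double-negative markers was 118 to 219 CPM in DP WT and 509 to 667 in DP KO, with 3 of the 7 tested called higher and Cd44 lower. Il2ra alone went from a mean of 12.5 CPM to 407 and made up most of that difference, and Cd34 was at or below 0.251 CPM. Their part in the result was not tested.

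Cdc20 had the smallest adjusted p in DP, with 205, 221 and 187 CPM in DP WT and 139, 130 and 166 in DP KO (log2 -0.48, SE 0.10, adjusted p = 0.00587). Nek2 had the largest change, with 94.1, 112 and 110 CPM in DP WT and 68.8, 55.1 and 85.2 in DP KO (log2 -0.58, SE 0.14, adjusted p = 0.0125). For each of these genes every KO library lay below every WT library. Bub1b fell from 286 ± 18.7 CPM (SD, n = 3) to 217 ± 29.5 (log2 -0.39, adjusted p = 0.0175) and Spc25 from 75.5 ± 3.04 to 55.8 ± 8.75 (log2 -0.43, adjusted p = 0.0161). Kif20a, Dlgap5, Nuf2, Kif23, Aurka and Pttg1 were the other 6 called, with log2 fold changes of -0.47, -0.44, -0.42, -0.40, -0.38 and -0.35. Kif23 and Pttg1 were thus called lower in DP although neither was called in CD4. Pttg1 was at 15.3, 15.2 and 15.3 CPM in DP WT and at 11.6, 10.5 and 13.6 in DP KO, with an adjusted p of 0.0494.

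None of the other 34 passed the test in DP. Mki67 was at 1043, 1327 and 1368 CPM in DP WT and at 1122, 772 and 1401 in DP KO, so the groups overlapped, and its log2 fold change was -0.17 (SE 0.19, adjusted p = 0.544). Ccnb1 was at 144, 168 and 161 CPM in DP WT and 122, 103 and 167 in DP KO (log2 -0.26, SE 0.15, adjusted p = 0.233). Cdc25b had the only positive value, with 125, 146 and 135 CPM in DP WT and 168, 137 and 206 in DP KO (log2 0.34, SE 0.13, adjusted p = 0.0769).

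The 3 DP KO libraries stood apart from each other: for all 44 members replicate 2 was the lowest and replicate 3 the highest. Replicate 1 lay below every DP WT library for 39 members, replicate 2 for 43 and replicate 3 for 13. Replicate 3 was above every DP WT library for 9. The shares of all genes were not counted, so these numbers of members have no background. The median coefficient of variation of the members was 21.3% in DP KO against 7.78% in DP WT, 14.7% in CD4 WT and 11.8% in CD4 KO. Haemoglobin and other erythroid markers summed to 190 to 432 CPM in DP KO and to 136 to 299 in DP WT, and their part in this spread was not tested. Without DP KO replicate 3 the count of lower members was 34, against 14.1% of all genes. With 1 of the other libraries left out, 10.2% to 13.9% of all genes were called lower. The member count was 2 without KO replicate 1, 3 without KO replicate 2, and 6, 3 and 5 without WT replicates 1, 2 and 3. With DP WT replicate 3 as the lone WT library the members' median was -0.35. In that fit the spread comes from the KO libraries alone, and the lone library is assumed to vary as they do. The number of members called is therefore not given for DP.

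**Figure D3:**
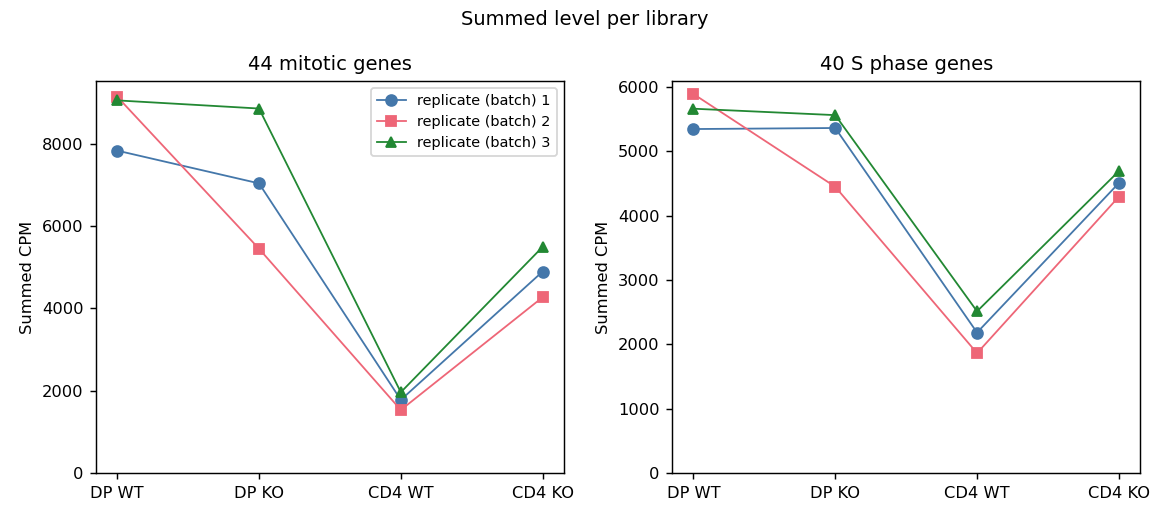
The vertical axis is the summed level in CPM of the 44 mitotic genes (left) and of 40 S phase genes (right) in each library, by group on the horizontal axis; lines join libraries of the same replicate (batch) number. The 3 CD4 KO sums, 4272 to 5496 CPM for the mitotic genes, lie above all CD4 WT sums, while the DP KO sums spread from 5451 to 8859.

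Between the stages of WT thymocytes the module fell steeply. From DP WT to CD4 WT 43 of 44 genes were lower, with a median log2 fold change of -2.48, where 27.1% of the 17369 genes tested were called lower and 27.9% higher. CD4 WT thus held a median of 18.0% of the DP WT level, from 14.3% for Ccnb2 upwards. Ccnb2 fell by 2.81 on the log2 scale (SE 0.10, adjusted p = 1.61e-08) and Ube2c by 2.73 (SE 0.12). The smallest called falls were those of Kif23 (log2 -1.02, SE 0.07), Kif20b (-1.46, SE 0.11) and Cdc25b (-1.53, SE 0.08). Pttg1 was at 104% of its DP level (log2 0.05, SE 0.10, adjusted p = 0.683). The count was 43 under every alternative run, also with DP WT replicate 3 as the lone DP WT library.

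In the knockout the step between the stages was smaller. From DP KO to CD4 KO 25 of 44 genes were called lower and none higher, at a median log2 fold change of -0.55. Of the 16910 genes tested, 7.82% were called lower and 13.9% higher. CD4 KO held a median of 67.6% of the DP KO level, from 61.5% for Ube2c to 122% for Pttg1. Cdc20 was at 139, 130 and 166 CPM in DP KO and 89.4, 90.0 and 99.2 in CD4 KO, with no overlap (log2 -0.62, SE 0.10, adjusted p = 0.00337). Cdc25b was at nearly the same level at both stages, 170 ± 34.3 CPM (SD, n = 3) in DP KO and 158 ± 12.8 in CD4 KO (log2 -0.09, SE 0.14, adjusted p = 0.715). For 28 members the groups did not overlap, against 19.5% of all genes. With the replicate number as a block 41 members were lower, against 17.6% of all genes. Pttg1 alone was then higher (adjusted p = 0.0192), against 20.4% of all genes. Within batches 1, 2 and 3 the medians of the members were -0.55, -0.40 and -0.69. The count was 6 and 5 without CD4 KO replicates 1 and 2, 7 without DP KO replicate 1 and 41 without DP KO replicate 2. Of all genes 3.63%, 4.02%, 4.52% and 6.72% were called lower in those fits, in that order.

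**Figure D4:**
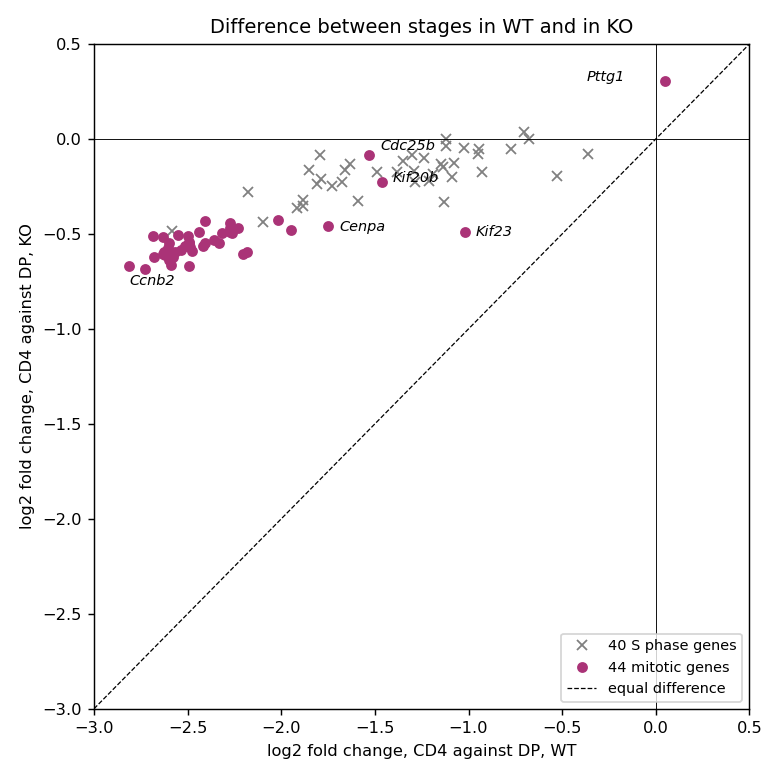
Each point is a gene: the horizontal axis is its log2 fold change from DP to CD4 in WT and the vertical axis that in KO, for the 44 mitotic genes (circles) and 40 S phase genes (crosses); the dashed line marks equal differences. The points lie above the line, with medians of -2.48 in WT and -0.55 in KO for the mitotic genes.

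The difference between the 2 genotype effects was itself tested. The effect of KO in CD4 minus that in DP, an interaction over all 12 libraries, was called higher for 43 of 44 members, with a median of 1.90 on the log2 scale, where 14.4% of the 18431 genes tested were called higher and 13.4% lower. It was 2.15 for Ccnb1 (SE 0.22, adjusted p = 1.27e-05), 2.12 for Ccnb2 and 2.09 for Aurka. The lowest called values were those of Kif20b, 1.21, and Kif23, 0.50 (SE 0.17, adjusted p = 0.0412). Pttg1 had 0.23 (SE 0.16, adjusted p = 0.321). Within batches 1, 2 and 3 the medians were 1.72, 2.35 and 1.55. Kif23 lost its call when any of 9 of the 12 libraries was left out, at adjusted p values up to 0.113, and with DP WT replicate 3 as the lone DP WT library, at 0.140.

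On the RPKM scale, which divides the CPM by the gene's length in kilobases and so allows genes to be compared, Top2a was the most abundant member in all 4 groups: 242 ± 30.9 (SD, n = 3) in DP WT, 198 ± 58.8 in DP KO, 48.3 ± 6.88 in CD4 WT and 134 ± 23.7 in CD4 KO. Ube2c and Mki67 followed, at 196 ± 9.88 and 123 ± 17.4 RPKM in DP WT, while Mki67 and Ccnb2, at 123 and 120, did not differ beyond their spread. Pttg1 was the lowest in DP WT, at 5.33 ± 0.0274 RPKM, in DP KO, at 4.14 ± 0.551, and in CD4 KO, at 5.04 ± 0.489, but not in CD4 WT, at 5.54. Kif23 was at 44.2 ± 2.3 RPKM in DP WT, at 21.9 ± 1.36 in CD4 WT, where Top2a, Ube2c, Mki67 and Incenp alone had higher means, and at 23.3 ± 2.51 in CD4 KO. The deposited lengths of Kif11 and Nek2, 9688 and 6418 bases, include exons on a second sequence of the annotation, against 4844 and 3221 bases on chromosomes 19 and 1 alone, so their RPKM values are not given.

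Apart from 3 genes the members followed 1 profile over the 12 libraries. The correlation of a gene's log2 level with the mean of the other members, given as a description of libraries that fall into 4 groups, was at least 0.98 for 41 members, 0.89 for Cdc25b, 0.83 for Kif23 and -0.32 for Pttg1. The log2 distance from CD4 WT to DP WT was covered to a median of 62.5% by CD4 KO, and to between 51.2% and 73.7% for the 41 genes without Pttg1, Kif23 and Cdc25b. For Kif23 it was 8.60% and for Cdc25b 115%.

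Other mitotic genes outside the module were counted from a list of 96. In CD4 cells 77 of them were higher in KO and none lower, where 20.9% of all genes were called higher and 18.6% lower. The median log2 fold change of the 96 was 1.10. All 25 further spindle, motor and cytokinesis genes were higher, as were 29 of 34 kinetochore and centromere genes and 19 of 23 genes of mitotic entry and exit. Of 14 core subunits of the anaphase-promoting complex 4 were higher, with a median of 0.14, beside the 20.9% of all genes. Anapc5 rose by 0.49 and Cdc16 by 0.31. Anapc11, its RING subunit, went against the other subunits, with a called log2 fold change of 0.37 in DP (adjusted p = 0.0105) and an interaction of -0.59 (adjusted p = 0.00163). In DP 11 of the 96 were lower and 1 higher, where 14.1% of all genes were called lower and 16.7% higher. The checkpoint gene Mad1l1 fell by 0.84 in DP (adjusted p = 8.61e-05). From DP KO to CD4 KO 35 of the 96 were lower, against 7.82% of all genes.

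Genes of S phase, the stage of DNA synthesis before G2, were compared for contrast. Of 40 such genes 39 were higher in CD4 KO than in CD4 WT, against 20.9% of all genes. The median log2 fold change of the 40 was 1.12 beside 1.54 for the mitotic module. Lig1, the ligase of DNA replication, rose by 1.5 (adjusted p = 3.06e-06) and Uhrf1, a protein of DNA methylation at replication forks, by 1.51. In DP 4 of 40 were lower, with a median of -0.07, where 14.1% of all genes were called lower. Ccne1, a G1/S cyclin, fell in DP by 0.49 (adjusted p = 0.00794) and Rrm2, a subunit of ribonucleotide reductase, by 0.48 (adjusted p = 0.0166). From DP KO to CD4 KO 1 of 40 was called lower, with a median of -0.17, where 7.82% of all genes were called lower. The difference between the 2 lists was not tested.

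For 9 members a larger part of the reads could come from another gene, taken as at least 5% of exon bases shared with a neighbour, a pseudogene that matches at least 10% of the transcript, or exons on a second sequence. Ccna2, Aurka, Kif20a, Prc1 and Nusap1 share 6.82% to 66.4% of their exon bases with a neighbouring gene, Ccnb1 has 4 annotated pseudogenes and Racgap1 has 1, and Nek2 and Kif11 have exons on a second sequence of the annotation. Without these 9 the counts were 33 of 35 higher in CD4, 7 of 35 lower in DP, 34 lower from DP WT to CD4 WT and 21 lower from DP KO to CD4 KO. The shares of all genes called in the same directions were 20.9%, 14.1%, 27.1% and 7.82%. With any shared exon base or near-identical stretch in another gene counted, as for Kif4, Ndc80, Foxm1 and Ect2, 23 members were affected. Without these 23, a recount made after the values were seen, 19 of 21 were higher in CD4, 6 of 21 lower in DP, 20 lower from DP WT to CD4 WT and 11 lower from DP KO to CD4 KO.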

How the data were processed

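Each library's group was taken from its title; stage, genotype, treatment and batch are as in the labels. The labels of the CD4 samples name DP columns, whereas the columns of the deposited CD4 table itself carry CD4 in their names and were matched to the titles by stage, genotype and number. The authors deposited raw counts of reads per gene for 6 DP and 6 CD4 libraries, and the deposited gene lengths, an other kind of value, served for RPKM. RNA was from TRIzol extracts with poly(A) selection, per the labels' protocols. The submitters' processing notes name mm10, Subread 1.0.1, DESeq2 and R 4.1.5 without roles; the table layout is that of featureCounts, per the file headers. For the aligner, strand setting and multiply mapped reads the choice is not given in the sources used here. Reads of overlapping genes on opposite strands may therefore be mixed.

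The counts as deposited were fitted over all genes with edgeR 4.0.16 in R 4.3.3 (TMM, default filter, quasi-likelihood test, Benjamini-Hochberg adjustment), and called at an adjusted p under 0.05. Pairwise comparisons used the 6 libraries concerned and the interaction all 12. Every adjusted p of a gene in the text is from this test unless another is named. SE is the log2 fold change divided by the root of F. Group means and SDs are those of CPM or RPKM, and a level given as a percentage of another stage divides the CPM means. Within-batch values, correlations and the log2 distances covered used log2(CPM + 0.5). The fits were tested on simulated counts. Depth of 22790504 to 62422640 counts leaves counting error small beside the spread between libraries; replicates differed beyond sampling noise in all 12 pairs (chi-square per degree of freedom 15.2 to 50.8).

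The members and lists were chosen with earlier results of these data known. Values per library and statistics are given for the 2 most abundant members of each role group, the 3 largest and 3 smallest changes of each comparison, the members called in DP and those not called in CD4; from other lists, the 2 called genes with the smallest adjusted p per comparison and those moving against their list; other members by value alone. A few further values, such as those of Foxm1, were added by role. Same-numbered libraries share a batch in the labels, which pairs them; their deviations correlated at -0.00 to 0.18 in DP, 0.12 to 0.34 in CD4, 0.15 to 0.27 between WT stages and 0.23 to 0.49 between KO stages. Libraries of different numbers correlated at -0.13 to 0.15, -0.25 to 0.18, -0.23 to 0.06 and -0.43 to 0.21, so the correlations alone do not pair replicates 1 and 2 in DP or CD4. Alternatives were DESeq2 1.42.0 (size factors, Wald test), limma-voom (limma 3.58.1), 2 other filters, 1 model over 12 libraries, the replicate block, leaving out each library, and DP WT replicate 3 alone, which for the WT stages and the interaction was chosen after seeing the data. Plots were made in Python 3.11.15 (matplotlib 3.10.9).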

Additional observations from a re-analysis of the deposited data

Results flagged for a closer look

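The effect of the knockout differed between CD4 and DP cells by the test of the difference itself for 43 of the 44 members, each with a larger value in CD4. On the log2 scale the difference was 2.15 for Ccnb1, 2.12 for Ccnb2, 2.09 for Aurka, 1.21 for Kif20b and 0.50 for Kif23, all by edgeR's quasi-likelihood interaction test over 12 libraries. For Ccnb1, Ccnb2 and Aurka the CD4 term was positive (1.88, 1.89 and 1.70) and the DP term negative (-0.26, -0.21 and -0.38), and of these 3 DP terms that of Aurka alone passed its own test (adjusted p = 0.0435). For Kif23 the DP term was -0.40 (called) and the CD4 term 0.09 (not called).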

How the results depend on the processing

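The count of 42 higher members in CD4 KO and that of 43 lower members from DP WT to CD4 WT did not change under any alternative. The interaction gave 42 to 43 with a library left out and 42 with DP WT replicate 3 as the lone DP WT library. In DP, where 10 members were lower, DESeq2's Wald test gave 19 lower, against 16.3% of all genes. Without a low-count filter 26 were lower, against 7.7%, and in the model over all 12 libraries 12, against 15.2%. Each of these fits also called 1 member higher, Cdc25b. With DP WT replicate 3 as the lone DP WT library the members' median was -0.35. With a library left out the DP count ran from 2 to 34 lower, against 10.2% to 14.1% of all genes, and from 0 to 1 higher. With the replicate block 15 members were lower, against 13.8% of all genes. From DP KO to CD4 KO, where 25 were lower, DESeq2's Wald test gave 39, against 11.1% of all genes, and no filter 42, against 5.53%. The replicate block gave 41 lower, against 17.6%, and 1 higher, against 20.4%. Leaving out a library gave 5 to 41 lower, against 3.63% to 8.65% of all genes. The block changed no other count of members by more than 1.5 times. With a library left out the median ran from 1.43 to 1.66 in CD4, from -0.47 to -0.16 in DP and from -0.71 to -0.38 between the KO stages. With a library left out the DP value ran from -0.43 to 0.014 for Kif11, -0.36 to 0.044 for Mki67, -0.22 to 0.038 for Mad2l1 and -0.26 to 0.10 for Kif15, each changing sign without DP KO replicate 2; that of Cdc25b between the KO stages ran from -0.23 to 0.062, changing sign without DP KO replicate 3. The cause of these changes was not tested. No setting that rescaled the libraries turned the sign of the members' median in any comparison.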

Other observations

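Outside the lists, the 8 genes whose log2 level over the 12 libraries was most like the mean of the module, of 9354 candidates, were Pif1, Ncaph, E2f8, Prr11, Ezh2, Cip2a, Lmnb1 and Hmgb2, with Pearson correlations of 0.998 for Pif1 to 0.996 for Hmgb2, given as a description of libraries that fall into 4 groups. They were picked by their levels in these same libraries. Their rise from CD4 WT to CD4 KO follows from that choice, so no p-values are given. Ezh2, the methyltransferase of Polycomb complex 2, was at 118 ± 5.85 CPM (SD, n = 3) in CD4 WT and 248 ± 21.2 in CD4 KO (log2 1.07). Lmnb1, which encodes lamin B1, was at 151 ± 11.3 CPM in CD4 WT and 324 ± 36.5 in CD4 KO (log2 1.10). Hmgb2, a chromatin protein of cycling cells, was at 225 ± 34.5 and 696 ± 70.2 (log2 1.63). Ncaph, a condensin subunit, rose by 1.53 and E2f8, a repressor of E2F targets, by 1.61. In DP none of these 5 genes was called, and the same choice bears on that too.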
